A study of Mus musculus with 6 samples.

Results

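Autophagy delivers cytoplasmic cargo to the lysosome, and the vacuolar proton pump (V-ATPase) acidifies the lysosome so that the cargo can be digested. CDK6 occupancy at the promoters of 52 genes of these pathways is described here, out of 22028 protein-coding genes with a promoter in the annotation. The members were chosen by symbol in GENCODE M21 on mm10, as every protein-coding Atg gene whose symbol is Atg, digits and optional letters, the genes Ulk1, Ulk2, Becn1, Sqstm1, Map1lc3a, Map1lc3b, Gabarap, Gabarapl1, Gabarapl2, Tfeb, Tfe3, Lamp1 and Lamp2, and all symbols that begin with Atp6v0 or Atp6v1. The rule itself used symbols and no measured value, but it was set with earlier results of these data known. It took in 27 genes of the autophagy machinery and its regulators, 22 V-ATPase subunits, both Lamp genes and Atp6v1fnb, a gene named only for its position beside Atp6v1f. Atg16l1 and Atg16l2 fall outside the wording and were tried as an alternative.

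The data came from chromatin immunoprecipitation sequencing (ChIP-seq) with an antibody against the HA tag in murine pre/pro-B cell lines transformed by BCR-ABL(p185). All cells were Cdk6-/- and carried a transduced, overexpressed HA-tagged CDK6. The tagged protein was either wildtype (CDK6-WT, n = 2 libraries) or the kinase-inactive mutant CDK6-K43M (n = 2), so neither group measured CDK6 at its endogenous level. The comparison of the variants asks whether the kinase activity of CDK6 matters for where it sits on chromatin, and CDK6 itself has no DNA-binding domain. The labels do not say whether the 2 libraries of a variant came from separate cultures, so their spread may be technical.

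In autophagy, the ULK kinase complex starts the process and a lipid kinase complex with Beclin 1 marks the site where the double membrane forms. ATG9 and ATG2 supply lipid to that membrane, and a conjugation system anchors LC3 and GABARAP proteins on it, which receptors such as p62 (Sqstm1) bind together with their cargo. The V-ATPase has a V0 sector in the membrane, through which protons pass, and a cytosolic V1 sector that hydrolyses ATP. TFEB and TFE3 are the transcription factors that bind the CLEAR element at lysosomal and autophagy genes and raise their expression.

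The peak lists held 34729 to 39797 peaks per library. No read totals were given, but the read number at each summit, the highest point of a peak, could be solved from the fold enrichment and the p-value of the peak, and 100% of the peaks in each list came out as a whole number of reads. The recovered relative depth was between 9.56 and 12.04 reads per kb, and CDK6-K43M replicate 1 was the deepest library. In each list 99% of the peaks had at least 8 to 11 reads at the summit, so weaker occupancy was not detectable. Promoters of 9 of the 10 B-lineage marker genes carried a peak in at least 3 lists, while Rag1 did so in the replicate 2 lists alone. None of the 5 T-lineage, 3 erythroid and 3 liver genes had a peak in any list, and Lyz2 was the 1 of 5 myeloid genes that did.

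CDK6 occupied most member promoters. A promoter began 2000 bp before any annotated transcript start and ended 200 bp after it, and a gene was called bound by both variants when at least 3 of the 4 lists had a peak there. By this definition 36 of the 52 members (69.2%) were bound by both, against 41.3% of all protein-coding genes. Peaks in all 4 lists were found at 28 members (53.8%), against 33.2% of all genes, and 6 members (11.5%) had no peak in any list, against 48.2%. A further 8 members (15.4%, against 8.13%) had peaks in exactly 3 lists and 1 member (1.92%, against 3.01%) in exactly 1. Member promoters were also more often rich in CpG dinucleotides, with 40 of 52 (76.9%) at an observed to expected ratio of at least 0.6, where 47% of all genes reached it. Among CpG-rich promoters alone, 30 of 40 members (75%) and 68% of all genes were bound by both, so the member share was closer to the background within this class. Peaks in all 4 lists were found at 24 of these 40 members (60%, against 55.6%). Among CpG-poor promoters 6 of 12 members and 18% of all genes were bound. Counts over members are descriptions and carry no test.

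The 4 libraries did not see the members alike. CDK6-WT replicate 1 had a peak at 45 member promoters (86.5%, against 47% of all genes) and CDK6-K43M replicate 1 at 44 (84.6%, against 48.5%). CDK6-WT replicate 2 had a peak at 32 members (61.5%, against 40.1%) and CDK6-K43M replicate 2 at 34 (65.4%, against 39.4%). The counts were thus high in both replicate 1 lists and low in both replicate 2 lists, with no overlap between the replicate numbers and complete overlap between the variants. Restricted to strong peaks with a −log10 q of at least 10, the counts were 36, 14, 38 and 6 in the order CDK6-WT replicate 1, CDK6-WT replicate 2, CDK6-K43M replicate 1 and CDK6-K43M replicate 2. Within CpG-rich promoters the counts over all peaks were 38, 27, 38 and 29 of 40 members in the same order, against 75.7%, 64.6%, 77.3% and 62.9% of all CpG-rich genes. For the strong peaks all genes gave 38.6%, 15.8%, 39.9% and 13.7% in that order, and in CDK6-K43M replicate 2 the member share of 11.5% lay below the background.

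**Figure D1:**
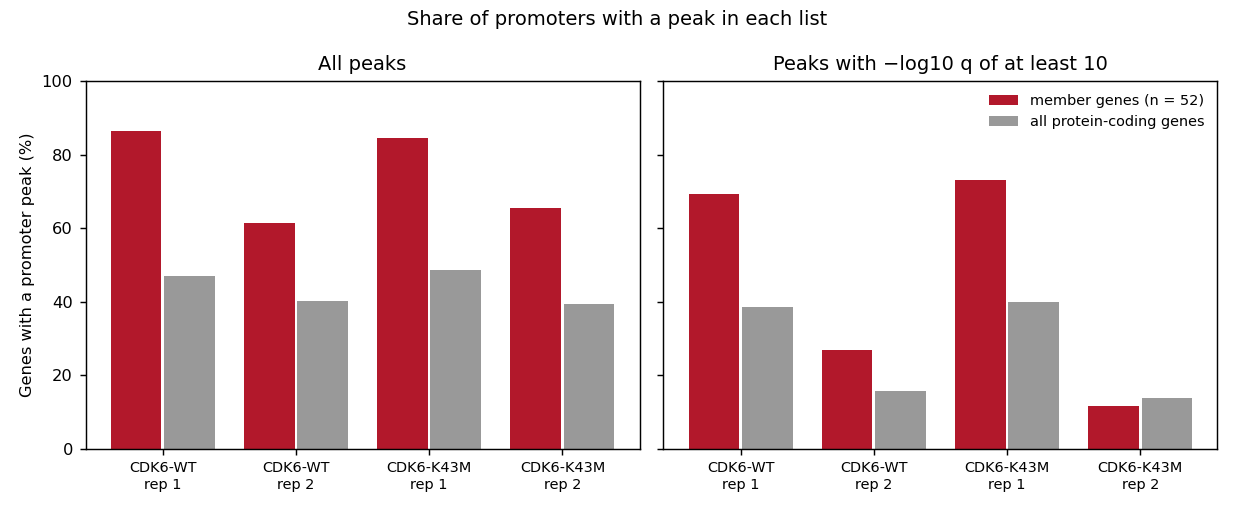
Percent of member promoters (red, n = 52) and of all protein-coding promoters (grey) with a peak in each of the 4 anti-HA lists, for all peaks on the left and for peaks with a −log10 q of at least 10 on the right. The red bars exceed the grey bars in every list on the left, whereas on the right the CDK6-K43M replicate 2 member share (11.5%) is below that of all genes (13.7%).

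The CLEAR element, the palindromic site of TFEB and TFE3, was searched for because many members are textbook targets of these factors. The core searched was TCACGTGA, and the E-box CACGTG lies within it, so every CLEAR core is also counted as an E-box. In windows of 100 bp to either side of the strongest promoter summit, 3 of the 36 members bound by both (8.33%) held a CLEAR core, against 1.86% of the 9100 bound genes with sequence. The 3 were Atg3, Lamp1 and Atp6v0d1. An E-box stood in 9 of the 36 windows (25%, against 8.97%), the further ones at Atg14, Atg5, Gabarap, Atp6v0b, Atp6v1c1 and Atp6v1h. A selection of these sites, with at most 1 entry per gene, is printed below from the GRCm38 (mm10) genome in the direction of the named gene, with the E-box or CLEAR core in capitals. The Atg3 entry is the whole gap between Atg3 and the divergent gene Slc35a5, chr16:45158707-45158784 on the plus strand, which overlaps no exon and holds both kinds of site.
Atg3 to Slc35a5 gap: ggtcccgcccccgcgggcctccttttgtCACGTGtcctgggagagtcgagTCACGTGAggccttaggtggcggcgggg
Lamp1, chr8:13159210-13159237, plus strand, in an exon: gaccctcggcTCACGTGAccggcgggcg
Atp6v0d1, chr8:105566051-105566078, minus strand, outside exons: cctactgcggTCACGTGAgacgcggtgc
Atp6v1h, chr1:5083079-5083104, plus strand, in an exon: cagctgcggtCACGTGcggctgctca
Gabarap, chr11:69991010-69991035, plus strand, outside exons: cgccacccgcCACGTGattctccgcc
Atp6v0b, chr4:117887332-117887357, minus strand, in an exon: gtcggcgcatCACGTGcgccggtcag
Atg14, chr14:47568420-47568445, minus strand, in an exon: aacaaaatccCACGTGactggccctg

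The search reached only 100 bp from the summit, so the distances below were limited by it. The nearest motif centre was 3 bp from the summit at Lamp1, Gabarap and Atp6v1h and 6 bp from it at Atg14 and Atp6v0b. Each was measured in the list where the peak was strongest. At Atg3 the CLEAR core stood at −42 bp from the summit and at −24 bp from the transcript start, where negative values are upstream. At Atp6v0d1 it was 73 bp downstream of the summit. The E-boxes of Atg5 and Atp6v1c1 stood at −76 and 42 bp from the summit. Further sites stood at −24 bp at Atp6v0b, at 17 bp at Atp6v1h and at −85, −72 and 30 bp at Lamp1, so the sites were spread over the window. Lamp1 held a second CLEAR core at chr8:13159237-13159264 and 4 E-boxes in all. RefSeq promoters (GRCm38.p6, 250 bp before to 50 bp after a start) were matched for 43 of the 52 members. They gave a CLEAR core for 4 (9.30%, against 1.45% of 16522 promoters), namely Atg3, Atp6v0d1, Atp6v0e and Atp6v1a. The Atp6v1a core lay 342 bp from the strongest summit, inside the peaks of both CDK6-WT lists and of CDK6-K43M replicate 1. The Atp6v0e core lay 13275 bp from the strongest summit, at another start of the gene, inside a second merged region (chr17:26675987-26677465) that was called in all 4 lists. A matching sequence says nothing about which factor was present.

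Further promoter motifs were counted on either strand of the same summit windows. The SP1 sequence GGGGCGGGG was found at 9 of the 36 (25%, against 13.4%) and the NRF-1 core (GCGCA, any base, GCGC) at 7 (19.4%, against 11.9%). The ETS sequence CCGGAAGT was found at 2 (5.56%, against 9.60%) and the NFY sequence CCAAT at 9 (25%, against 24.8%). In the RefSeq promoters the NFY share was 27.9% for members and 42.1% for all promoters, so the position of that motif relative to the background depended on the window.

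Genes of the initiation complex were bound throughout, with Ulk1, Ulk2, Atg13 and Atg101 in all 4 lists, as were 33.2% of all genes and 55.6% of all CpG-rich genes. Signal is given below as the percentile of the strongest promoter peak by −log10 q within its own list, where 100 marks the strongest peak of the list. Ulk2, a kinase related to Ulk1, stood at 84.8 and 90.7 in CDK6-WT replicates 1 and 2 and at 89.1 and 92.4 in CDK6-K43M replicates 1 and 2. It was among the members with the highest percentiles, with 30 to 42 reads at the summit in the 4 lists, but these values join different sites. The strongest summits were at chr11:61855045 and chr11:61855109 in the replicate 1 lists and at chr11:61854360 and chr11:61854275 in the replicate 2 lists. The strongest peaks of the CDK6-WT lists did not overlap. Measured to the nearest of 3 starts, the summits lay 28 bp downstream and 36 bp upstream in the replicate 1 lists. In the replicate 2 lists they lay 142 bp and 227 bp downstream. Ulk1, the kinase at the head of the pathway, stood at 81.4 and 36.3 with CDK6-WT and at 86.1 and 58.4 with CDK6-K43M. Its summits held 41 and 43 reads in the replicate 1 lists but 14 and 15 in the replicate 2 lists, so the replicate numbers lay further apart than the variants. The CDK6-K43M percentile was the higher within both replicate numbers, by 4.665 and 22.09.

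Of the nucleation genes, Atg14 was bound in all 4 lists and Becn1 only in the replicate 1 lists. Becn1 encodes Beclin 1, the scaffold of the autophagic lipid kinase complex. Its peak covered the start at chr11:101302172-101302433 in CDK6-K43M replicate 1, where it reached percentile 63.9 with 29 reads, and in CDK6-WT replicate 1 it reached 22.1 with 16 reads. Atg14, which directs that complex to the forming membrane, was the weakest member with peaks in all 4 lists, at 68.2 and 14.2 with CDK6-WT and 24.95 and 36.2 with CDK6-K43M. Of the lipid supply genes, Atg9a, Atg9b and Atg2a were bound by both variants. Atg2b, which encodes a lipid transfer protein, had strong peaks in both replicate 1 lists (percentiles 90.5 and 91.9, with 39 and 45 reads) and none in the replicate 2 lists.

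The conjugation system had 8 of 9 genes bound by both (88.9%, against 41.3% of all genes and 68% of all CpG-rich genes). Atg3, the E2-like enzyme that passes LC3 to its lipid, was the strongest of them at 98.0 and 75.3 with CDK6-WT and 98.5 and 66.2 with CDK6-K43M. Summits at Atg3 held 52 and 28 reads with CDK6-WT and 67 and 18 with CDK6-K43M, and the peaks spanned the gap sequence printed above in all 4 lists. Atg5, which is joined to ATG12 in the same system, stood at 85.3 and 75.3 with CDK6-WT and at 93.5 and 75.1 with CDK6-K43M. Atg4c, a protease that processes LC3, was the 1 member seen in the replicate 2 lists alone, at percentiles 74.7 and 66.2 with 23 and 18 reads. Atg7, the E1-like enzyme, had 27 and 38 reads in the replicate 1 lists, no peak in CDK6-WT replicate 2 and, in CDK6-K43M replicate 2, a peak at percentile 0.153, close to the calling limit.

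Among the LC3 and GABARAP genes, whose proteins coat the autophagosome, Gabarap and Map1lc3b had peaks in all 4 lists and Gabarapl2 in 3. Map1lc3b encodes LC3B, the usual marker of autophagosomes, and stood at 97.6 and 61.1 with CDK6-WT and at 88.3 and 16.2 with CDK6-K43M. The strongest Map1lc3b summit was within 12 bp of the start in 3 lists, while in CDK6-K43M replicate 2 it was a different peak, 214 bp downstream of a start, with 10 reads. Gabarapl1 and Map1lc3a were called only in the replicate 1 lists, each with 14 to 20 reads. Sqstm1, the receptor gene, was likewise called only in the replicate 1 lists, at 61.4 with CDK6-WT and 74.4 with CDK6-K43M, and its summits were 542 bp and 444 bp downstream of a start.

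The transcription factor genes differed from each other. Tfeb was bound in all 4 lists at 96.6 and 84.6 with CDK6-WT and at 97.7 and 84.7 with CDK6-K43M, while Tfe3 was called only in the replicate 1 lists, at 47.97 with CDK6-WT and 65.3 with CDK6-K43M. Tfeb has several starts and 8 merged regions lay over its promoters, 3 of which were bound by both. Its strongest peak was near the first start in both CDK6-WT lists, in 2 different regions (summits at chr17:47738290 and chr17:47736990), and at a start further downstream in both CDK6-K43M lists (summits at chr17:47768768 and chr17:47768906). The downstream region, chr17:47768254-47769497, was nevertheless called in all 4 lists, so the peak that ranked first differed and not the presence of a peak. The Lamp genes encode the most abundant glycoproteins of the lysosomal membrane. Lamp1 stood at 96.1 and 36.3 with CDK6-WT and at 99.4 and 36.2 with CDK6-K43M, and the 87 reads at its summit in CDK6-K43M replicate 1 were the most of any member in any list. Lamp2 was called only in the replicate 1 lists, at 4.10 and 28.6, with 10 and 15 reads.

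**Figure D2:**
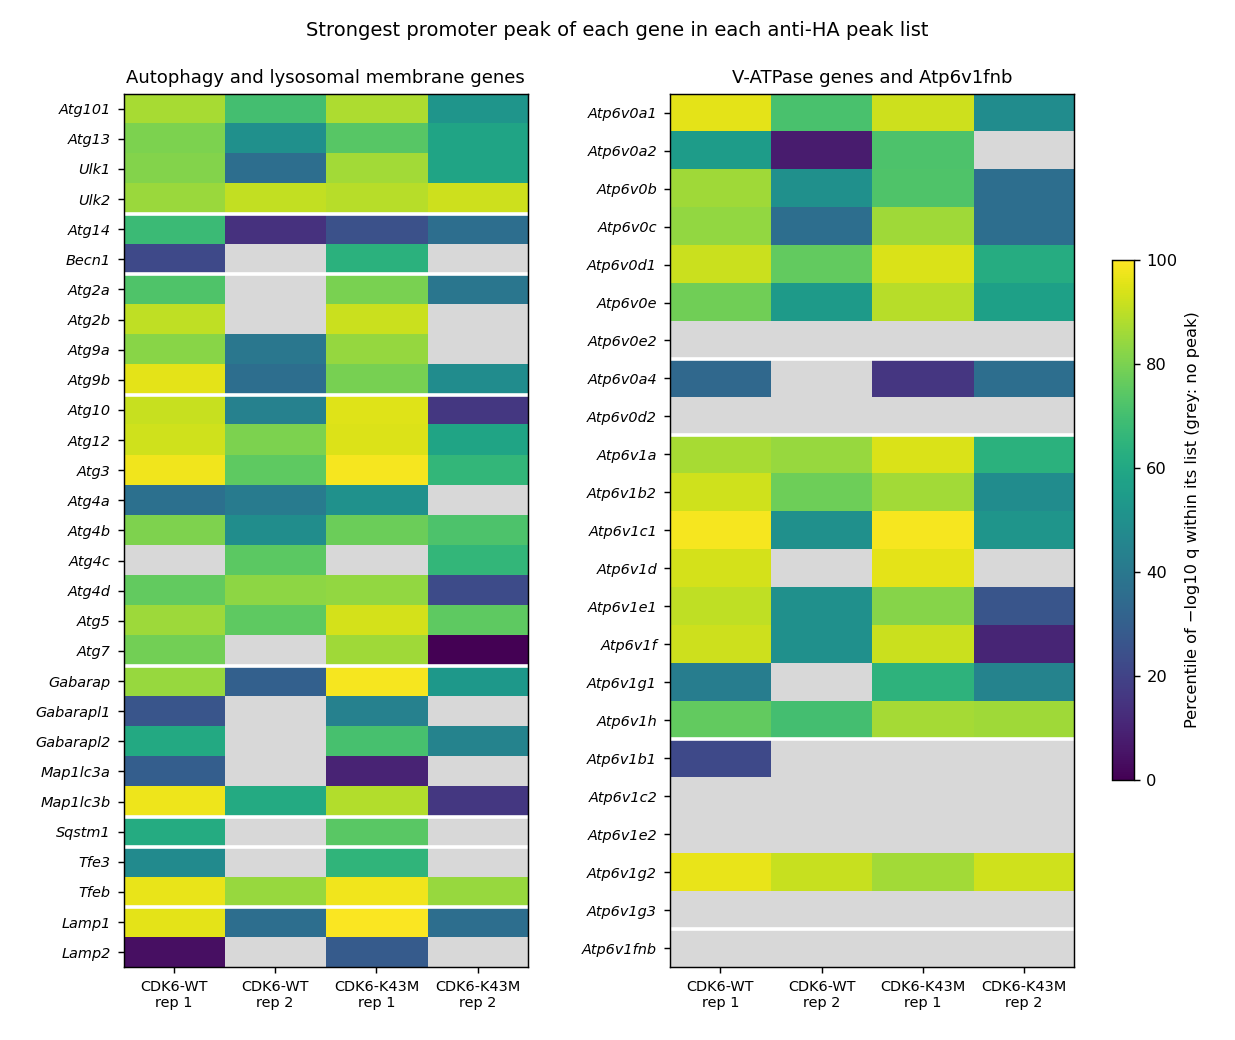
Percentile of −log10 q of the strongest promoter peak within its list (colour, 0 to 100, grey for no peak) for each of the 52 members (rows, grouped by role) in the 4 anti-HA lists (columns). Grey cells are mostly in the replicate 2 columns, where 32 and 34 members had a peak, and the lower part of the V-ATPase panel holds the restricted isoforms with no peak in any list.

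The V-ATPase genes were listed by the breadth of expression of the subunit, which was not measured here. Of the 15 genes listed as broadly expressed, 13 were bound by both variants, and of the 7 isoforms known from kidney, bone, brain or other restricted tissues, 2 were, beside 41.3% of all genes. The lists also differed in CpG class, with 14 of the 15 and 1 of the 7 CpG-rich, classes in which 68% and, for CpG-poor promoters, 18% of all genes were bound by both. Breadth of expression and CpG class cannot be told apart here. By sector, 6 of the 7 V0 genes and 7 of the 8 V1 genes listed as broadly expressed were bound by both. Atp6v0e2, listed with the V0 genes, had no peak in any list, and Atp6v1d had strong peaks in both replicate 1 lists (percentiles 93.7 and 95.96, with 40 and 53 reads) and none in the replicate 2 lists. Isoforms of the same subunit differed as follows. Atp6v1c1 had peaks in all 4 lists and Atp6v1c2 in none, Atp6v1e1 in all 4 and Atp6v1e2 in none, Atp6v0d1 in all 4 and Atp6v0d2 in none, and Atp6v1g1 in 3 and Atp6v1g3 in none. Atp6v1b2 had peaks in all 4, while its isoform Atp6v1b1 had 1 peak, with 15 reads, in CDK6-WT replicate 1 alone. The unbound promoters were CpG-poor at Atp6v0d2, Atp6v1g3, Atp6v1e2, Atp6v0e2 and Atp6v1fnb, with ratios of 0.0784 to 0.504, but Atp6v1c2 had a ratio of 0.693.

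The exceptions among the restricted isoforms, bound by both variants, were Atp6v1g2 and Atp6v0a4. Atp6v1g2, an isoform of the V1 stalk known from neurons, had the highest mean percentile of the 28 members with peaks in all 4 lists. It stood at 96.7 and 91.8 with CDK6-WT and at 86.2 and 92.8 with CDK6-K43M. The last value came from a peak in a different region, with its summit at −1414 bp from a start, so the mean joins different sites. Starts of Atp6v1g2 and of Nfkbil1 on the other strand lie within 1000 bp of each other, and the peaks cannot be assigned to either gene. Atp6v0a4, the kidney isoform of the V0 a subunit, had weak peaks in 3 lists (12 to 16 reads), but only at starts of non-coding transcripts of the gene, and had none when starts of protein-coding transcripts alone were used. The single peak at Atp6v1b1 was lost in the same way. Starts shared with a neighbour were frequent, with another protein-coding start within 1000 bp on the other strand at 14 of the 52 members (26.9%), against 12.3% of all genes. These members included the broadly expressed Atp6v1a, Atp6v1b2, Atp6v1d and Atp6v1h, so such a neighbour was not particular to the exceptions. How far the peaks lay from the start of the neighbour was not measured. Of these 14 members 11 were bound by both (78.6%), against 78.1% of all such genes, and of the other 38 members 25 were (65.8%), against 36.2%.

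Among the broadly expressed subunits with peaks in all 4 lists Atp6v1a, the catalytic subunit, had the highest mean percentile. It stood at 87.03 and 84.7 with CDK6-WT and at 94.4 and 64.0 with CDK6-K43M, with 36, 26, 54 and 16 reads at the summit in the order of libraries used above. Atp6v1c1, which encodes a subunit that links the sectors, stood higher in the replicate 1 lists (98.8 with CDK6-WT and 98.5 with CDK6-K43M) and only at 50.1 and 51.99 in the replicate 2 lists. The reads at its summit were 58 and 67 in the former and 16 and 14 in the latter.

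CDK6-WT and CDK6-K43M were then compared. The mean number of members with a peak was 38.5 ± 9.19 (SD, n = 2) with CDK6-WT and 39 ± 7.07 (SD, n = 2) with CDK6-K43M, a difference of 0.5 that was far below the spread between replicates. Within replicate 1 the CDK6-K43M list had 1 member fewer and within replicate 2 it had 2 more. No member had a peak in both lists of one variant and in neither list of the other, a pattern that was rare among all genes too (0.0817% in CDK6-WT only and 0.241% in CDK6-K43M only). With 2 libraries against 2 there are 6 assignments, so that no exact permutation test could give a two-sided p below 0.33.

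Single regions over member promoters did differ between the variants in the presence of a called peak. Of the 77 merged regions over member promoters, 45 were bound by both, 1 was unique to CDK6-WT, 1 was unique to CDK6-K43M, 16 were in the replicate 1 lists only and 2 in the replicate 2 lists only. These were 58.4%, 1.3%, 1.3%, 20.8% and 2.6% of the regions, against 61.1%, 0.27%, 0.864%, 14.2% and 3.95% of the promoter regions of all genes. The region unique to CDK6-WT was chr4:117886859-117887089 at Atp6v0b, a gene for a proton-conducting V0 subunit, and 0.222% of all genes had such a region. The region unique to CDK6-K43M was chr11:101009877-101010348 at Atp6v0a1, the widely expressed V0 a subunit, and 0.713% of all genes had such a region. Each lay beside a region bound by both in the same promoter. At Atp6v0b the shared region stood at 85.9 and 50.1 with CDK6-WT and at 72.5 and 36.2 with CDK6-K43M. At Atp6v0a1 the strongest peak stood at 95.97 and 71.4 with CDK6-WT and at 92.5 and 48.7 with CDK6-K43M, the last being a different region, downstream of the others.

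For the 28 members with peaks in all 4 lists the median percentile was 88.8 and 57.8 in CDK6-WT replicates 1 and 2 and 88.7 and 52.7 in CDK6-K43M replicates 1 and 2. The mean of these medians was 73.3 ± 21.9 (SD, n = 2) with CDK6-WT and 70.7 ± 25.5 (SD, n = 2) with CDK6-K43M, and the difference of −2.59 was smaller than the spread. The CDK6-K43M percentile was the higher in 16 of the 28 within replicate 1 (57.1%, against 58.1% of all genes in 4 lists) and in 12 within replicate 2 (42.9%, against 49.2%). It was higher within both replicate numbers for 6 members (21.4%, against 29.1%) and lower within both for 6 (21.4%, against 21.8%). These shares were near the background.

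Atp6v1h, a regulatory subunit of the V1 sector, was the 1 member whose CDK6-K43M percentiles both exceeded both CDK6-WT percentiles (3.57% of the 28, against 6.77% of all genes). It stood at 76.1 and 70.2 with CDK6-WT and at 86.4 and 85.8 with CDK6-K43M, a difference of 12.9 (exact permutation test, two-sided, p = 0.33). Its reads at the summit were 34 and 20 with CDK6-WT and 41 and 23 with CDK6-K43M. No member showed the opposite pattern, which 3.61% of all genes did. Larger mean differences were found at Gabarap, which stood at 84.7 and 30.7 with CDK6-WT and at 98.7 and 53.4 with CDK6-K43M (difference 18.4), and at Ulk1 (difference 13.4), but there the variants overlapped because of the distance between the replicate numbers. The largest decreases were at Map1lc3b (−27.1), Atg4d (−26.2) and Atp6v1f (−20.2). At Map1lc3b the CDK6-K43M replicate 2 value came from a peak in a different region, so its differences join different sites. Atg4d, a protease of the LC3 system, was higher with CDK6-K43M within replicate 1 (76.1 and 83.8) and lower within replicate 2 (83.0 and 22.9), and its CDK6-WT replicate 2 summit stood at −735 bp from the start where the others stood between −121 and −74 bp. Atp6v1f, a small V1 subunit, was nearly equal within replicate 1 (92.5 and 91.9) and apart within replicate 2 (50.1 and 10.3). Within replicate 2 the differences at Map1lc3b, Atg4d and Atp6v1f were −44.8, −60.0 and −39.9, and within replicate 1 they were −9.32, 7.67 and −0.58. CDK6-K43M replicate 2 was the library of lowest recovered depth (9.56 reads per kb), and the part of depth in these values was not tested.

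**Figure D3:**
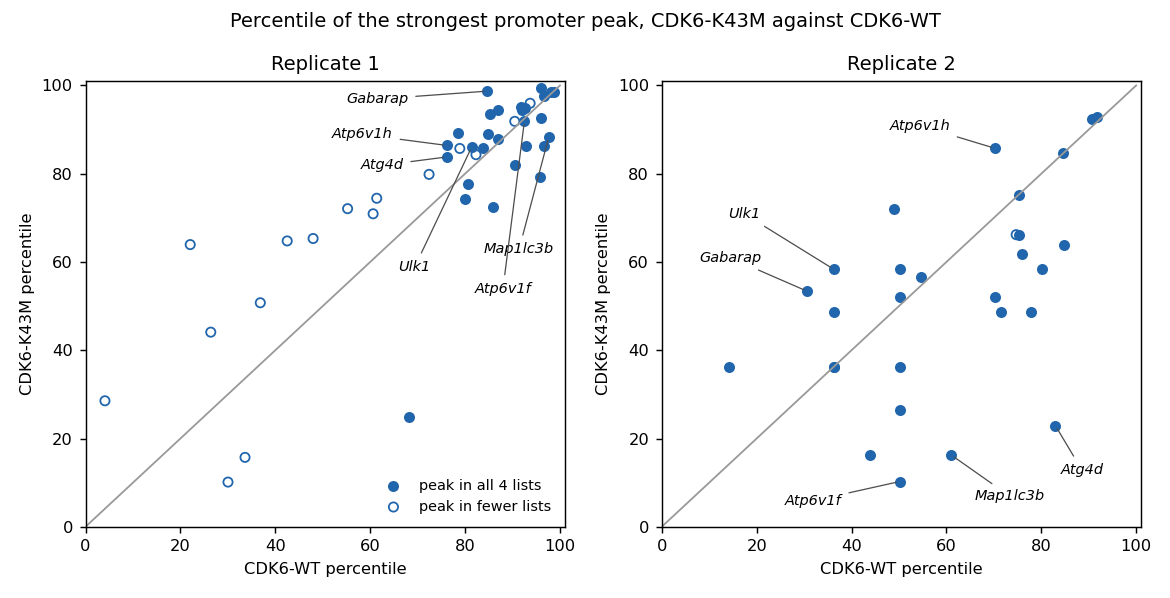
Percentile of the strongest promoter peak in the CDK6-K43M list (vertical axis) against the CDK6-WT list (horizontal axis) for members with a peak in both, within replicate 1 (left) and replicate 2 (right). Filled points are members with peaks in all 4 lists, open points have peaks in fewer lists and the line marks equal percentiles. Points on the left gather at high percentiles, with medians of 88.8 and 88.7 for the filled ones, and spread widely on the right. Atp6v1h is 1 of 6 filled points above the line in both panels.

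Replicate number separated the members more than the variant did. On average 44.5 ± 0.707 members (SD, n = 2) had a peak in the replicate 1 lists and 33 ± 1.41 (SD, n = 2) in the replicate 2 lists. Both replicate 1 percentiles exceeded both replicate 2 percentiles for 23 of the 28 members in all 4 lists (82.1%, against 69.4% of all genes). Peaks in the replicate 1 lists alone were found at 8 members (15.4%, against 5.67%), which were Becn1, Atg2b, Gabarapl1, Map1lc3a, Sqstm1, Tfe3, Lamp2 and Atp6v1d, and in the replicate 2 lists alone at 1 member (1.92%, against 1.28%). The labels do not say what the replicate number marks, and its part in these counts was not tested. The recovered depth was 10.1 and 10.5 reads per kb in CDK6-WT replicates 1 and 2 and 12.04 and 9.56 in CDK6-K43M replicates 1 and 2, and its part was not tested either.

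Reads at the summit showed the same division. The median over members with a peak was 34 reads in CDK6-WT replicate 1 and 40.5 in CDK6-K43M replicate 1, against 16.5 and 15 in the respective replicate 2 lists. The median local background at these peaks was between 1.57 and 2.46 reads in all 4 lists. All protein-coding genes with a peak had medians of 30, 19, 37 and 16 reads in the order CDK6-WT replicate 1, CDK6-WT replicate 2, CDK6-K43M replicate 1 and CDK6-K43M replicate 2, so members lay above them in the replicate 1 lists and below them in the replicate 2 lists. Counts this low take few values, and Atg14, Lamp1, Atp6v0b, Atp6v0c and Atp6v0a4 shared the percentile of 36.2 in CDK6-K43M replicate 2 because each had 12 reads over a background of 1.57. In the same list the Atp6v1e1 peak, with 11 reads over the same background of 1.57, stood at 26.4.

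**Figure D4:**
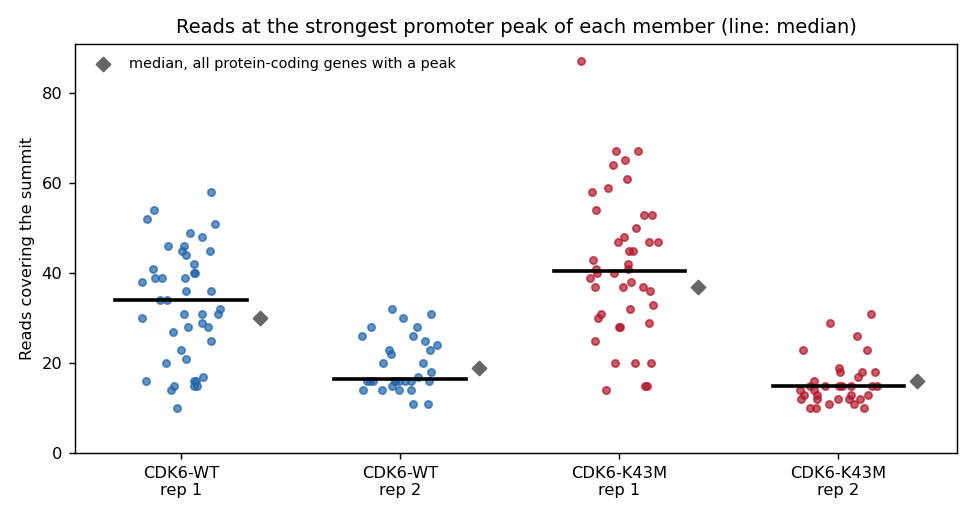
Reads covering the summit of the strongest promoter peak (vertical axis, recovered whole reads) for each member with a peak in each of the 4 anti-HA lists, with a black line at the member median and a grey diamond at the median of all protein-coding genes with a peak. The member medians are 34 and 40.5 in the replicate 1 lists and 16.5 and 15 in the replicate 2 lists, above the diamond in the former and below it in the latter.

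Peaks at member promoters, like those of all genes, centred on the transcript start. The strongest summit was within 200 bp of a start at 38 of 45 members in CDK6-WT replicate 1, 29 of 32 in CDK6-WT replicate 2, 37 of 44 in CDK6-K43M replicate 1 and 26 of 34 in CDK6-K43M replicate 2. These shares were 84.4%, 90.6%, 84.1% and 76.5%, against 78.3%, 71.2%, 77.6% and 69.4% of all genes with a peak. The median position was −27, −35, −41 and −18.5 bp from the start in the same order, and over all genes −43, −46, −42 and −41 bp. Summits of CDK6-WT and CDK6-K43M replicate 1 lay within 100 bp of each other at 38 of the 44 members they shared (86.4%, against 80.3% of all genes). For the replicate 2 lists the count was 17 of 29 (58.6%, against 63.3%). CDK6-WT replicate 2 was within 100 bp of CDK6-WT replicate 1 at 26 of 31 (83.9%, against 65.0%) and of CDK6-K43M replicate 1 at 25 of 31 (80.65%, against 65.9%). CDK6-K43M replicate 2 was so with CDK6-WT replicate 1 at 18 of 33 (54.55%, against 62.3%) and with CDK6-K43M replicate 1 at 21 of 33 (63.6%, against 62.9%). The low member shares were thus those of the pairs with CDK6-K43M replicate 2, not of both replicate 2 lists. The 4 strongest peaks of a member fell in a single merged region at 23 of the 28 members in all 4 lists (82.1%, against 81.8%), the exceptions being Atg9b, Map1lc3b, Tfeb, Atp6v0a1 and Atp6v1g2.

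**Figure D5:**
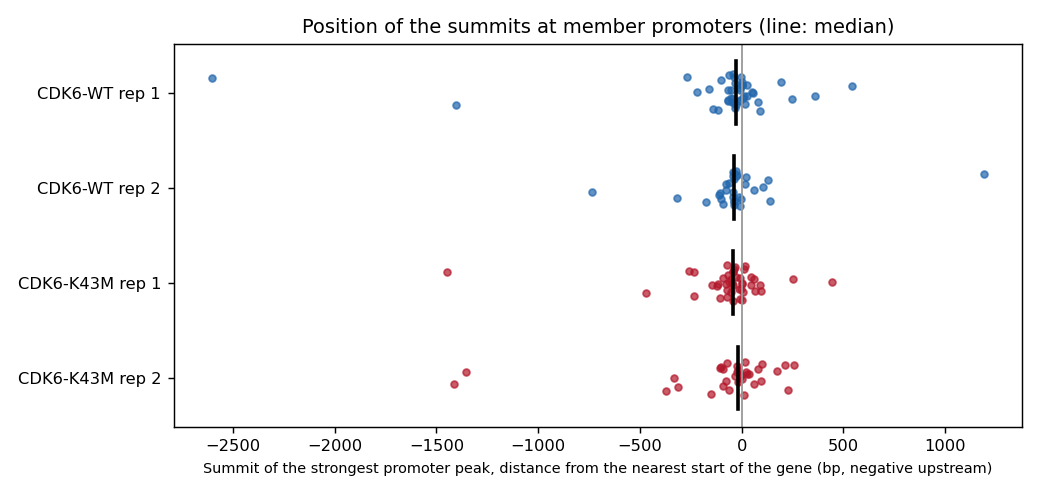
Distance in bp from the nearest start of the gene to the summit of the strongest promoter peak (horizontal axis, negative upstream) for each member with a peak in each of the 4 anti-HA lists (rows), with a black line at the median. The medians lie between −41 and −18.5 bp in all 4 rows, and a few summits lie more than 1000 bp away.

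Genes of the same pathways that are not members were occupied at a similar rate. Of 65 such genes 48 were bound by both (73.8%), beside 69.2% of the members and 41.3% of all genes. These were 20 of 24 other autophagy genes, 7 of 10 V-ATPase assembly and accessory genes, 17 of 26 genes for lysosomal enzymes and membrane proteins and 4 of 5 further factors and regulators of the TFEB family. Of these 48 promoters, 7 held a CLEAR core within 100 bp of the strongest summit, beside 3 of the 36 bound members (8.33%) and 1.86% of all bound genes. The core was thus not particular to the members.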

How the data were processed

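Anti-HA ChIP-seq peak lists of 4 libraries were analysed, grouped by the variant and replicate number in their titles. The 2 input libraries were not analysed here. According to the study's methods and the submitters' processing notes, the authors used Trimmomatic 0.36 for trimming, BWA 0.7.15 for alignment to mm10 and bedtools and SAMtools 1.3.1 for filtering, and called peaks per library with MACS2 2.1.0. For each peak the deposited lists give a fold enrichment (ratio), a p-value and a q-value as −log10, an integer score and other information (the summit offset). The deposited lists hold peaks with a q-value under 0.05, which makes an uncalled promoter one below that limit, and the overlap of a peak with a promoter was at least 1 bp.

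Promoters came from GENCODE M21, whereas the authors used M13 (both mm10). Merged peaks were classed as the study defined them, with at least 3 of 4 lists for regions bound by both. Whole reads at summits were solved from fold enrichment and −log10 p within 0.001. Reads and overlaps were tested on simulated data, and bedtools 2.31.1 gave 0 genes called differently. PCR duplicates and counting error were not modelled. The scripts ran in Python 3.11.15 with pysam 0.24.0, scipy 1.17.1, pandas 2.3.3 and numpy 2.4.6.

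Genes named with values were Ulk1, Becn1, Sqstm1, Map1lc3b, Tfeb, Tfe3, Lamp1 and Lamp2, every member not bound by both or with a variant-unique region, the 6 with the highest mean percentile, and the 3 with the largest and the 3 with the smallest difference between variants. Atg7, Atg14, Atp6v0a4 and Atp6v1c1 were added after their values were seen. The members, gene lists and motifs were chosen with earlier results of these data known. Alternatives were stricter peak sets, lists of equal length, other promoter windows and definitions, ranking by fold, leaving out libraries one by one and a block on the replicate number. Exact permutation tests were run for single members only.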

Additional observations from a re-analysis of the deposited data

How the results depend on the processing

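The count of 36 members bound by both variants was 33 when peaks needed a −log10 q of 5. It was 14 when they needed 10 (26.9%, against 17.4% of all genes) and 12 in the top 10000 peaks per list (23.1%, against 13.1%). It was 34 to 38 under the other promoter windows, lists of equal length and with Atg16l1 and Atg16l2 added. When all 4 lists were required it was 28 (53.8%, against 33.2%). For the settings printed without a share, all genes were not counted, so the background there is not known. The excess of replicate 1 over replicate 2, 11.5 members, rose to 14.5, 27 and 22.5 under the same 3 stricter peak sets. The difference of 0.5 members between the variants ranged from −4.5 to 0.5 over the peak sets and windows. Leaving out 1 library at a time, bound by both meant a peak in at least 1 remaining list of each variant, a looser rule than for 4 lists. The ranges were then 32 to 44 members bound by both (38.4% to 46.9% of all genes), −6 to 7 for the difference between variants, 10.5 to 12.5 for the excess of replicate 1 and −20.6 to 19.4 for the difference in median percentile, whose value with all libraries was −2.59. With a peak required in all 3 remaining lists, 28 to 33 members were bound (33.4% to 37.4% of all genes). The 19.4 was reached without CDK6-K43M replicate 2 and the −20.6 without CDK6-K43M replicate 1. Its sign also changed, to 3.19, when only members whose 4 strongest peaks lie in 1 merged region were used, an alternative chosen after seeing the data. With the replicate number as a block the differences were 0.5 members and −2.59 percentiles, unchanged by construction. Deviations of same-numbered libraries correlated at 0.378 over 28 members and 0.573 over all genes in 4 lists, but 2 pairs cannot show that the numbers pair the samples, and the labels do not say so. The cause of these shifts was not tested. In all, 42 of 48 alternative values over 4 results stayed within a set limit. It was 1.5 times for the count bound by both. For the excess of replicate 1 it was the spread between the variants within a replicate number, 1.41 members. For the differences between variants it was the spread between replicates. This last spread was 7.07 members and 21.9 percentiles. It held the split by replicate number itself, so that even −20.6 counted as unchanged, and staying within it says little. As 99% of the peaks held at least 8 to 11 reads, occupancy below that was not detectable.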

Other observations

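Peaks also lay inside the member genes, away from their promoters. In all 56 merged regions overlapped member gene bodies outside the promoter windows, and 15 of them were bound by both variants (26.8%, against 32.7% of such regions over all protein-coding genes). Atg7 and Atg10, which encode the E1-like and an E2-like enzyme of the conjugation system, each had 3 such regions, all intronic. At Atg7 they were chr6:114644515-114644881, chr6:114778607-114779108 and chr6:114804942-114805363, and the first pair was called in all 4 lists, although the Atg7 promoter itself had no peak in CDK6-WT replicate 2. The Atg10 regions, chr13:90981208-90981769, chr13:91053275-91053866 and chr13:91202266-91203184, were each called in all 4 lists, and a further intronic region, chr13:90967479-90967812, was called in both CDK6-K43M lists and in neither CDK6-WT list. It was 1 of 3 such regions in member gene bodies (5.36%, against 1.5% over all genes), the others lying in Atg12 and Atg4a, and none was unique to CDK6-WT (0.359% over all genes).

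Atp6v0a4, whose protein-coding starts had no peak, held 4 regions bound by both within its body, at chr6:38048815-38049513, chr6:38050105-38051009, chr6:38064630-38065030 and chr6:38065170-38066646. Tfeb had 4 regions in its body outside the promoters and none was bound by both, with 3 called in the replicate 1 lists only and 1 in a single list.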
